A study of Mus musculus with 16 samples.

Results

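Mouse myoblasts cultured for 48 hr on the muscle fiber they came from were compared with myoblasts cultured for the same time off it. Of the 16 Agilent arrays of the series, the 8 that the labels place at 48 hr were used, 4 of myofiber-associated and 4 of dispersed myoblasts. All cells came from male C57Bl/6J mice of 11 to 13 weeks, and the labels name no transgene, deletion or drug in either culture. The myofiber-associated cells were released from cultured single fibers with trypsin and joined with the cells that washed off, from 2 mice per preparation, and 1 of the 4 arrays (called the pooled array here) carried 2 preparations. The dispersed cells grew on gelatin-coated dishes, from 1 mouse per preparation. The labels name the source of every sample as muscle fibers, also of the dispersed ones, and state that no fiber RNA was found in the stripped cells.

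Satellite cells are the stem cells of skeletal muscle and lie between a fiber and its basement membrane. They are held quiescent there by Notch signaling and contact with the niche. After isolation they turn on Myod1, divide as myoblasts, and then either switch on Myog, the gene of the transcription factor myogenin, and fuse, or return to quiescence with Pax7. The fiber itself expresses the contractile and metabolic genes of mature muscle, and muscle tissue also holds vessels, nerves, immune cells and fibroblasts.

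Each culture lay on a slide of its own. In every comparison of the cultures at a single time the slide cannot be told apart from the culture. The E1A probes, which read a control RNA added to every sample, also differed between the slides. Slide, labelling, scan and amount of sample RNA cannot be told apart in that difference. Before normalization 7 of the 10 E1A probes were above background and below saturation on all 8 arrays. They differed between the slides by -1.28 to -1.12 on the log2 scale, lower on the myofiber-associated slide, with a median of -1.20. The 75th percentile of all gene probes differed by -0.26. The SD of the mean E1A signal within a slide was 0.16 for the myofiber-associated and 0.06 for the dispersed arrays. Both are well under the E1A difference between the slides. Quantile normalization, which gives every array the same distribution, left the E1A probes at a median difference of -1.01.

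**Figure D1:**
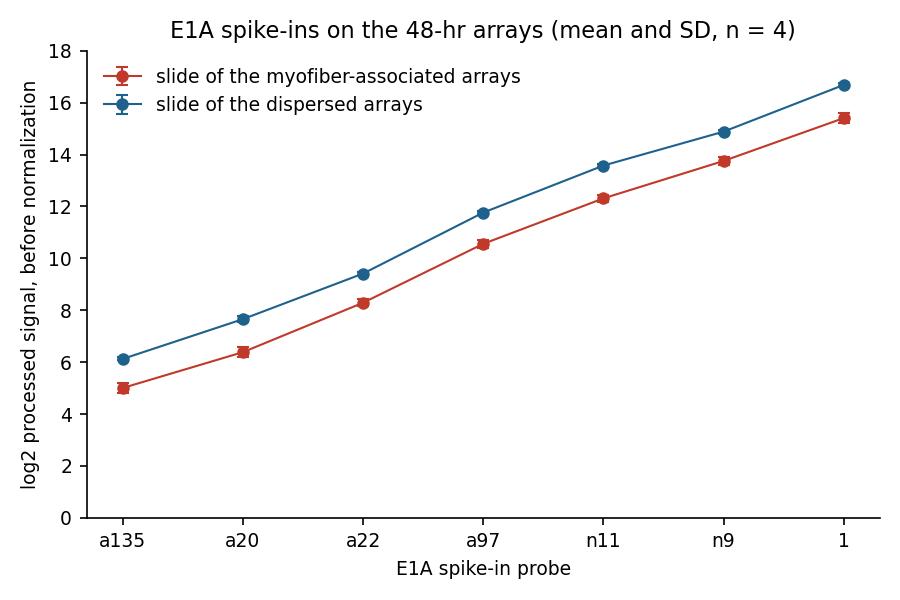
Log2 processed signal before normalization of the 7 E1A control probes used, with mean and SD over the 4 arrays of each slide at 48 hr. Each probe is lower on the slide of the myofiber-associated arrays, with differences of -1.28 to -1.12.

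On the quantile scale, which is the one used unless another is named, the median gene differed by -0.12 on the log2 scale (all differences are myofiber-associated minus dispersed). When each array was instead set by its E1A signal, the median gene differed by 0.87. A gene near the median therefore has no direction that holds on both scales, and spike-in values are given for list medians and for genes of the core set whose sign turned. Of the 160 list members called lower, 80 were still called lower on the spike-in scale and 1, the protease gene Mmp12 (-1.11), turned above 0 (0.02). The 108 list members called higher were called higher on it too. Since the spike-in scale moved the median gene upward, members called higher could hardly lose the call. Of 423 members not called, 264 turned sign and 136 were called higher there, so a small value below 0 has no settled direction.

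Arrays of 1 culture resembled each other more than arrays of the other culture. Pearson's r over genes was 0.979 to 0.996 within the myofiber-associated arrays, 0.995 to 0.997 within the dispersed arrays and 0.919 to 0.954 between them, and the first principal component held 86.1% of the variance. The spread was wider in the myofiber-associated group, with a median SD per gene of 0.22 against 0.10. The pooled array lay nearest to the dispersed arrays, with a mean r to them of 0.951 against 0.923 to 0.940 for the other myofiber-associated arrays. The labels call the replicates independent preparations. The number of arrays limits the precision, and of the spots 55.2% to 62.4% were well above background.

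Of 20448 genes tested, 3339 (16.3%) were called, meaning a limma adjusted p under 0.01 and a difference of at least 2-fold. The called genes were 1639 higher (8.02% of those tested) and 1700 lower (8.31%) in myofiber-associated myoblasts. That split of 49.1% higher became 94.5% higher on the spike-in scale (8350 higher and 482 lower). Of 20331 genes tested on the spike-in scale 43.4% were called, so many list members called higher there only follow the shift of all genes. List counts on the quantile scale are to be read beside 8.02% and 8.31%, and those on the spike-in scale beside 8350 and 482 of 20331. The large differences were mostly higher. Among called genes 298 were at least 16-fold higher and 20 at least 16-fold lower, and 115 were at least 64-fold higher with none at least 64-fold lower. In 47 of the genes called higher no dispersed array was well above background, and in 10 of the genes called lower no myofiber-associated array was.

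**Figure D2:**
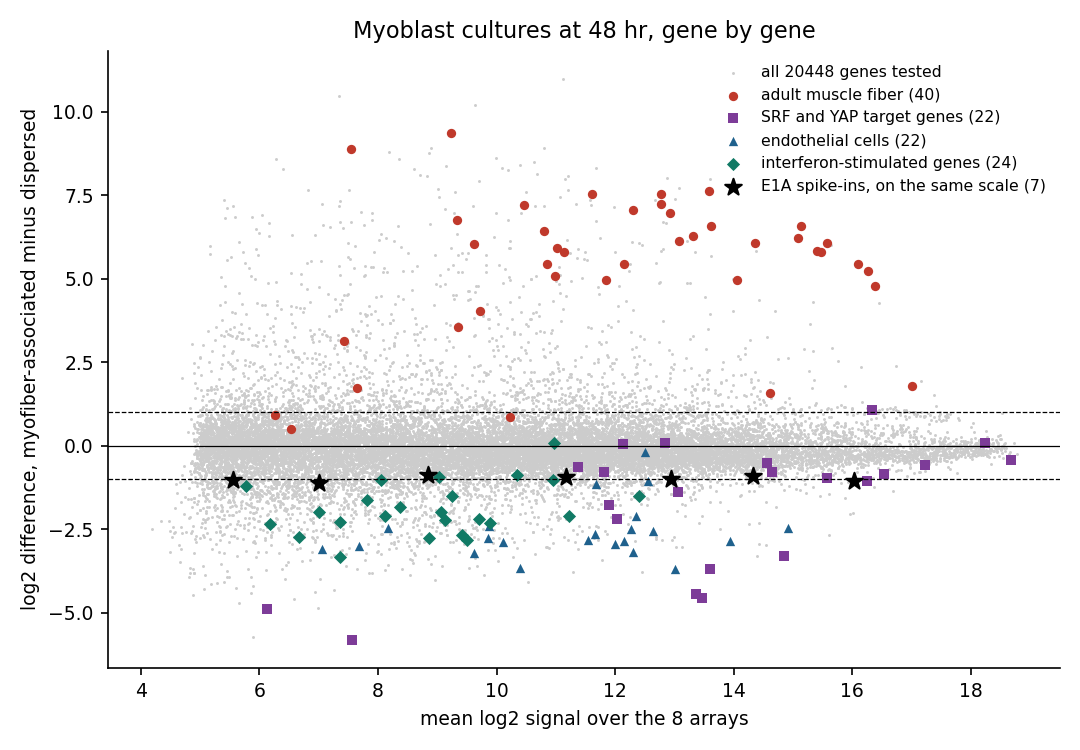
Log2 difference between the cultures at 48 hr (vertical axis) against the mean log2 signal over the 8 arrays (horizontal axis), 1 point per gene, with dashed lines at a 2-fold difference. Genes of the adult fiber (circles) lie far above 0, endothelial (triangles) and interferon-stimulated genes (diamonds) lie mostly below -1, and the E1A controls (stars) lie near -1.

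The genes of the adult muscle fiber had the highest median of the 34 gene lists examined. Of 40 tested, 37 were called higher and 0 lower, with a median difference of 5.88 (6.89 on the spike-in scale) beside -0.12 for all genes. Tnnc1 (0.91), Tnnt1 (0.86) and Myh7 (0.50), all of slow fibers, were the ones not called. Among the genes called higher were the creatine kinase gene Ckm (7.62), the fast calcium pump gene Atp2a1 (7.04), the fast alpha-actinin gene Actn3 (6.08) and the slow and cardiac genes Myl3 (3.56), Tnni1 (3.14) and Myl2 (1.73). The fast myosin light chain gene Mylpf (8.88) fell below the signal filter when any 1 myofiber-associated array was left out. Ckm read 17.80, 17.26, 17.65 and 16.84 log2 units on the myofiber-associated arrays (in order of replicate number, the pooled array last) and 10.56, 10.02, 9.41 and 9.07 on the dispersed ones. The groups lay far apart, and the adjusted p was 2.43e-06 by limma. Summed over the 40 genes, the linear signal ran from 3872100 to 5403400 on the myofiber-associated arrays, lowest on the pooled array, and from 148670 to 219050 on the dispersed arrays. That was 1.59% to 2.22% of all gene signal against 0.06% to 0.09%. How far RNA of fibers, rather than of myoblasts, makes up these values was not tested, and in such bulk samples fewer cells of a type and less RNA per cell cannot be told apart. The labels' statement that fiber RNA was absent stands beside these levels.

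The gene with the largest difference was Trim63, the ubiquitin ligase MuRF1 that breaks down contractile proteins in wasting muscle (probe at chr4:133885025-133885084, mm9). It read 16.85, 16.45, 17.09 and 16.06 on the myofiber-associated arrays and 6.89, 5.79, 5.09 and 4.75 on the dispersed arrays, a log2 difference of 10.98 (SE 0.45, adjusted p = 1.71e-06 by limma). A second Trim63 probe gave 11.04. The other large rises included the membrane repair gene Trim72 (8.90), the actin-binding gene Xirp2 (9.35), the sarcomere gene Klhl41 (8.76), the small muscle protein gene Smpx (8.60), the hemojuvelin gene Hfe2, now Hjv (8.79), the phosphatase gene Dupd1 (10.19) and the potassium channel gene Kcnc4 (8.56). Several of them were dim off the fiber, with 1 of 4 dispersed arrays well above background for Mylpf, Trim72, Hfe2 and Klhl41, 2 for Xirp2 and Kcnc4 and 3 for Dupd1. No dispersed array read Ip6k3, an inositol phosphate kinase gene of muscle, or the noncoding Srrm4os well above background, so only bounds can be given. Set against the lowest signal well above background on each dispersed array, Ip6k3 was at least 401-fold higher and Srrm4os at least 99.5-fold higher.

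Genes of fiber atrophy were higher together with Trim63. Many of them are targets of FoxO factors, induced in muscle by unloading, denervation or fasting. Of 18 tested, 10 were called higher and 0 lower, with a median of 1.31 (2.28 on the spike-in scale). After Trim63 came the muscle F-box gene Fbxo40 (8.09), the stress gene Gadd45a (4.91), the atrogin gene Fbxo32 (3.82), and the autophagy genes Map1lc3a (2.05) and Sqstm1 (1.98). The factors themselves were not called, with Foxo1 at -0.35, Foxo3 at -0.22 and Foxo4 at 0.52.

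The regulatory genes of myogenesis divided. Myog and Myf6, which act late in differentiation and in the fiber, were far higher on the fiber, whereas Myod1, which marks any activated myoblast, was not called. Myog (probe at chr1:136188874-136188933, mm9) read 14.03, 14.23, 15.02 and 14.00 on the myofiber-associated arrays and 6.70, 5.96, 5.75 and 5.88 on the dispersed arrays. That is a log2 difference of 8.25 (SE 0.28, adjusted p = 8.68e-07 by limma), or 304-fold. Myf6 read 15.27, 15.27, 15.75 and 14.70 against 6.88, 6.26, 6.06 and 6.13, a log2 difference of 8.91 (SE 0.25, adjusted p = 4.99e-07 by limma). For both genes the groups lay far apart. Myod1 read 14.58, 15.06, 14.87 and 14.33 against 14.51, 14.27, 14.39 and 14.57. The groups overlapped, and the difference of 0.28 (SE 0.16) had an adjusted p of 0.165 by limma, although on the spike-in scale it was 1.25 and past the threshold.

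**Figure D3:**
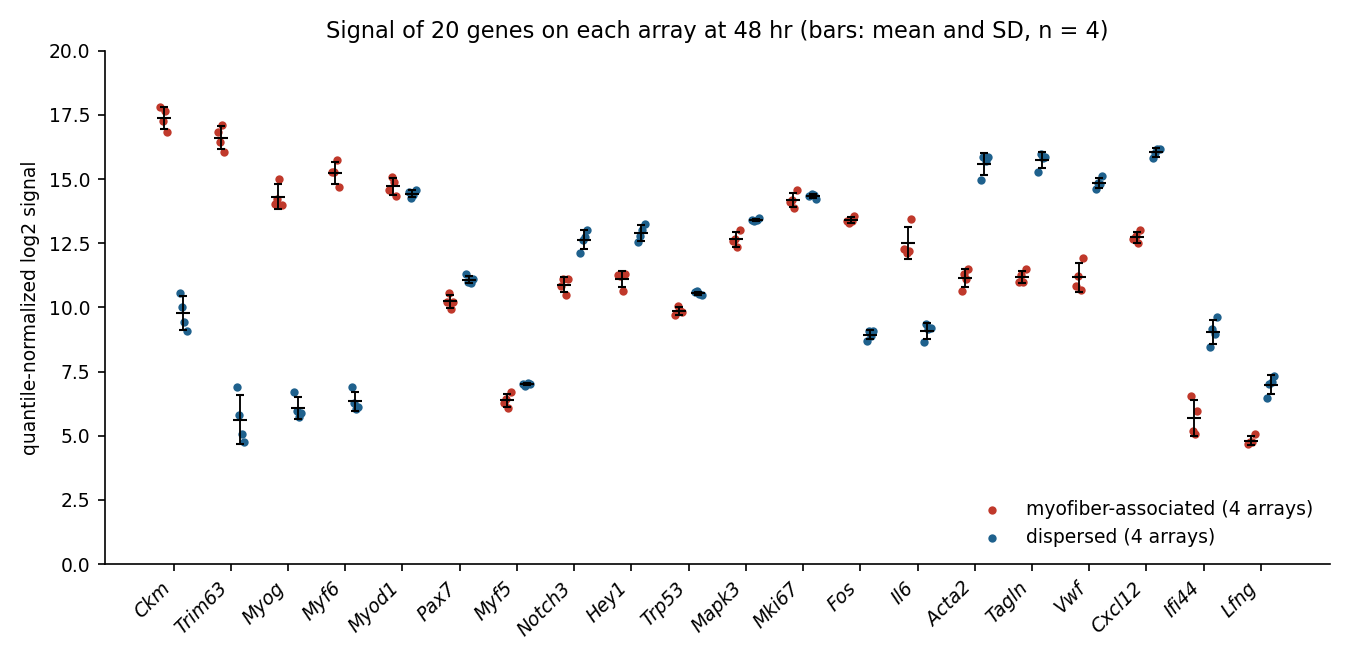
Quantile-normalized log2 signal of 20 genes on each of the 8 arrays at 48 hr (points), with mean and SD over the 4 arrays of each culture. Ckm, Trim63, Myog, Myf6 and Fos lie higher on the myofiber-associated arrays, Acta2, Tagln, Vwf, Cxcl12 and Ifi44 lie lower, and Myod1 and Mki67 overlap.

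Pax7 is the transcription factor gene that defines satellite cells (probe at chr4:139294364-139294423, mm9). It read 10.21, 10.55, 9.93 and 10.23 on the myofiber-associated arrays and 11.30, 11.00, 10.96 and 11.09 on the dispersed arrays. The groups did not overlap, and the difference of -0.86 (SE 0.14, adjusted p = 0.0011 by limma) was under 2-fold and turned to 0.06 on the spike-in scale. Myf5, a second early myogenic factor gene, read 6.27, 6.43, 6.10 and 6.69 against 7.01, 6.95, 7.07 and 7.0. Its difference of -0.63 (adjusted p = 0.00269 by limma) became 0.42 on the spike-in scale. Exact permutation over the 8 arrays gave a two-sided p of 0.0286 for Pax7 and for Myf5, which is the smallest that 4 against 4 arrays allow.

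Among the surface genes used to find satellite cells, the adhesion genes Cdh15 (-0.66) and Vcam1 (-0.81), the syndecan genes Sdc3 (-0.43) and Sdc4 (-0.27) and the chemokine receptor gene Cxcr4 (-0.93) were not called, and on the spike-in scale they stood at 0.31, 0.17, 0.51, 0.67 and 0.02. Cxcr4 crossed the 2-fold line without myofiber-associated replicate 8 (-1.10) or without the pooled array (-1.05). Of 21 genes of satellite cell and myoblast identity, 3 were called higher (14.3%) and 2 lower (9.52%), beside 8.02% and 8.31% of all genes. The median was -0.19 (0.77 on the spike-in scale, where 6 were called higher and 0 lower). The genes called higher were Des, for desmin (4.04), Musk, for the receptor kinase of the neuromuscular junction (3.41), and Chrdl2, for a BMP antagonist (2.23). Fibers also express Des and Musk. The genes called lower were Pax3 (-1.21) and the FGF receptor gene Fgfr4 (-1.56). On the spike-in scale Pax3 was -0.17 and Fgfr4 -0.62, and neither was called. The mean log2 signal over the identity list was 11.45 to 11.71 on the myofiber-associated arrays and 11.37 to 11.52 on the dispersed arrays. Des, Musk and Chrdl2 raise the myofiber-associated mean, and 15 of the 21 genes lay below 0 and 6 above it. The means show only that the list was well measured in both cultures.

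Notch pathway genes were either lower on the fiber or not called on the quantile scale. Of 20 tested, 7 were called lower (35.0%) and 0 higher, with a median of -0.59 that turned to 0.35 on the spike-in scale, where 2 were called lower and 2 higher. The genes called lower were the ligand genes Dll4 (-1.70) and Jag1 (-1.10), the receptor gene Notch3 (-1.76), the glycosyltransferase gene Lfng (-2.17), and the target genes Nrarp (-2.05), Hey1 (-1.79) and Heyl (-1.59). Hey1 read 11.28, 11.22, 10.62 and 11.30 against 12.54, 12.79, 13.00 and 13.25 (SE 0.20, adjusted p = 0.000159 by limma). Notch3 read 10.82, 11.11, 10.48 and 11.09 against 12.14, 12.63, 12.76 and 13.02 (SE 0.21, adjusted p = 0.00023 by limma). The groups did not overlap for either, yet with spike-in scaling Hey1 was -0.84 and Notch3 -0.81, both short of 2-fold. Lfng (-1.07) and Nrarp (-1.03) were still called on that scale. The other main target gene Hes1 stood at 0.56 and the transcriptional partner gene Rbpj at -0.52, neither called. Notch1 has probes that disagree, at -0.37 for the brighter and -2.33 for the dimmer. Dll4, Jag1, Notch3, Lfng and Hey1 are also expressed by vessels, whose marker genes were lower on the fiber as given further on, and the part of vessel cells in these values was not tested.

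Genes tied to satellite cell quiescence overlap with those of the Notch pathway. Of 19 tested, 6 were called lower and 1 higher, with a median of -0.42 (0.55 on the spike-in scale, where 2 were called lower and 5 higher). Besides Hey1, Heyl and Notch3 the genes called lower were the receptor gene Tek (-2.46), the G-protein regulator gene Rgs5 (-2.02) and the ERK inhibitor gene Spry1 (-1.18). Tek is also an endothelial gene and Rgs5 a pericyte gene. Pdk4, which turns muscle from glucose to fat oxidation, was called higher (3.16). Calcr (0.11), Cd34 (-0.94) and Foxo3 (-0.22) were not called.

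Among genes of early differentiation and fusion, 8 of 29 were called higher (27.6%) and 3 lower (10.3%), beside 8.02% and 8.31% of all genes. The median was -0.12 (0.84 on the spike-in scale, where 13 were called higher and 1 lower). Those higher after Myog and the caveolin gene Cav3 (8.30) were the embryonic or perinatal sarcomere genes Myh8 (6.00), Actc1 (5.62) and Myl4 (4.34), the transcription factor genes Mef2c (3.0) and Mef2d (1.27), and Igfbp5 (1.80). On the quantile scale the fusion genes behaved otherwise. Mymx, for myomixer, was called lower (-1.55), and Mymk, for myomaker, stood at -0.19. With spike-in scaling Mymx was -0.41 and Mymk 0.84, neither called, so this contrast depends on the scale. The embryonic acetylcholine receptor gene Chrng (-0.86) and its partners Chrna1 (-0.54), Chrnb1 (-0.08) and Chrnd (0.28) were not called. For Myh8, the 2 brighter probes gave 6.00 and 6.98, whereas 2 dim probes gave 0.13 and -0.08.

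**Figure D4:**
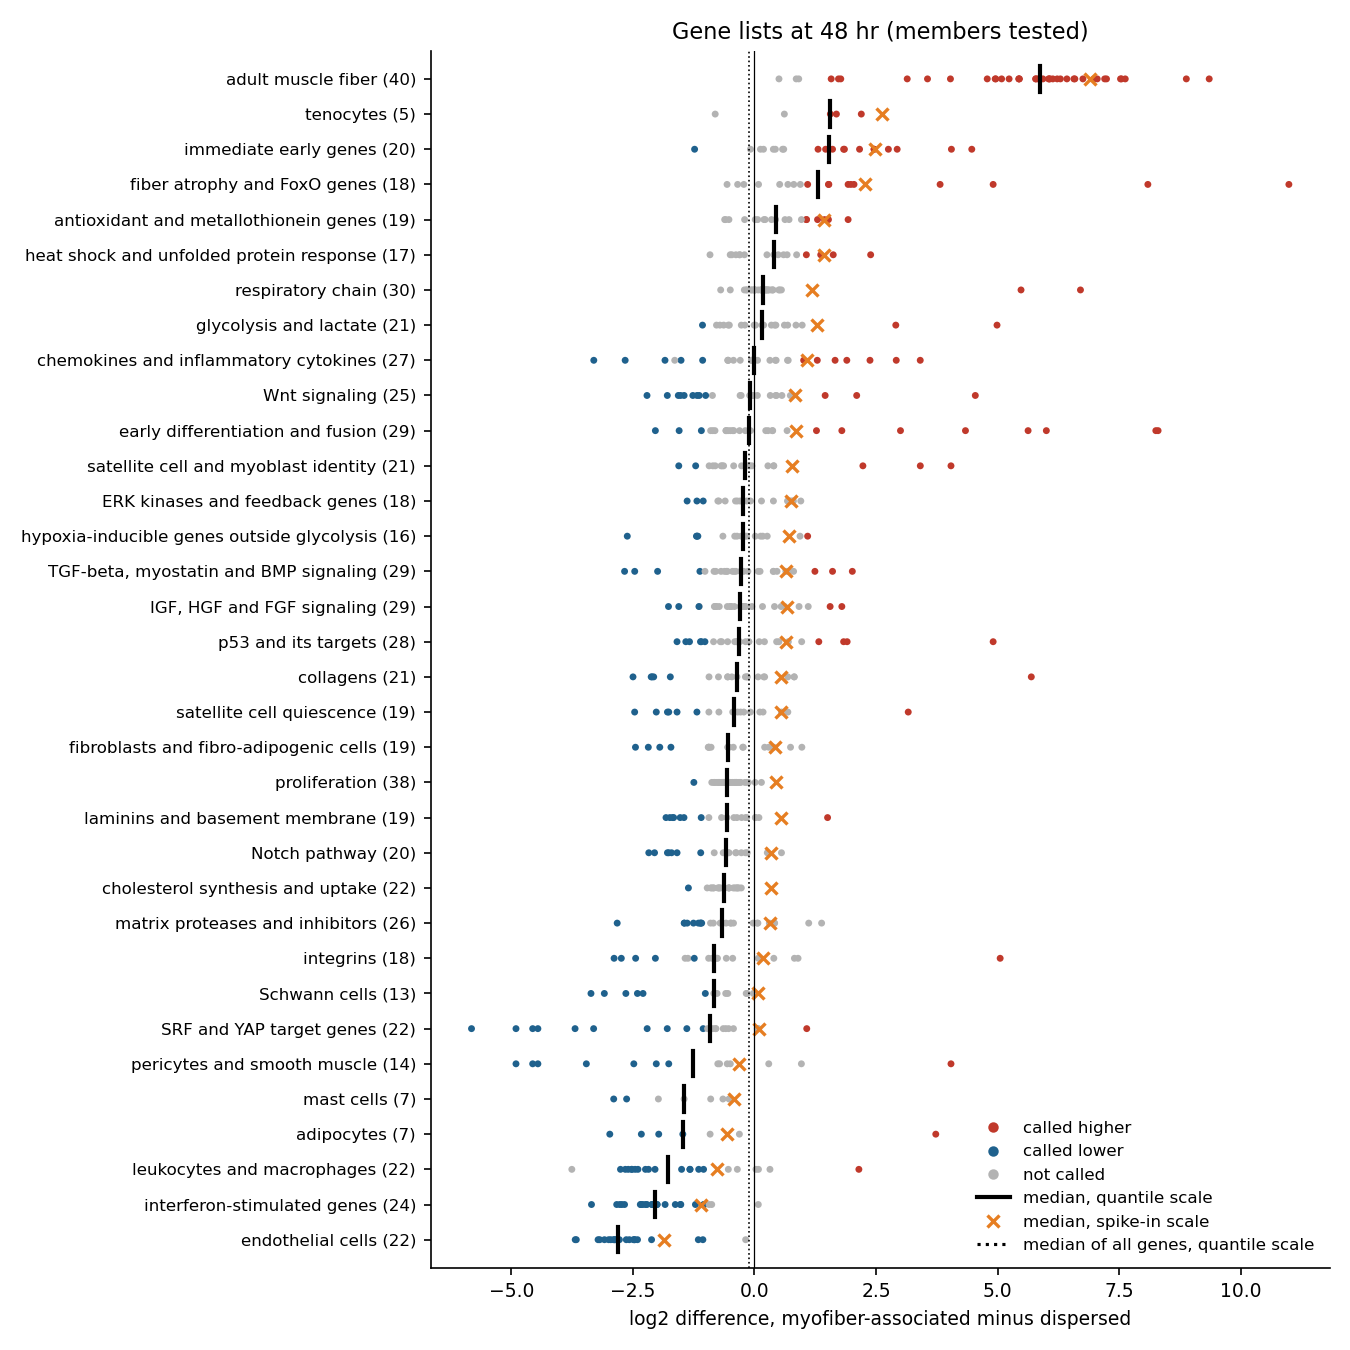
Log2 difference at 48 hr of every member tested (points) in the 34 gene lists, with the list median on the quantile scale (black bar), on the spike-in scale (orange cross) and the median of all genes (dotted line). The adult fiber, tenocyte, immediate early and atrophy lists have medians above 1, and the endothelial, interferon and leukocyte lists have medians below -1.

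On either scale few cell cycle genes were called. Of 38 proliferation genes, 0 were called higher and 1 lower, the cyclin gene Ccne2 (-1.25), which was -0.12 on the spike-in scale. Yet 36 of the 38 lay below 0 on the quantile scale, with a median of -0.56 that turned to 0.43 with spike-in scaling (1 called higher and 0 lower), and 19 more passed the adjusted p without a 2-fold difference. The proliferation marker Mki67 read 14.11, 14.19, 13.89 and 14.57 against 14.36, 14.42, 14.40 and 14.24. The groups overlapped (difference -0.16, adjusted p = 0.339 by limma), and the spike-in value was 0.81. The mitosis genes Aurkb (-0.83), Plk1 (-0.68) and Top2a (-0.60) and the replication genes Pcna (-0.20) and Mcm2 (-0.38) were not called.

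Trp53, for the tumor suppressor p53 (probe at chr11:69404204-69404263, mm9), read 9.69, 10.05, 9.87 and 9.81 on the myofiber-associated arrays and 10.59, 10.62, 10.53 and 10.49 on the dispersed arrays. All myofiber-associated arrays were lower, by a mean of 0.70 (adjusted p = 0.000313 by limma), which is under 2-fold, and on the spike-in scale the difference was 0.22. Of 28 genes of p53 and its targets, 4 were called higher (14.3%) and 6 lower (21.4%), beside 8.02% and 8.31% of all genes. The median was -0.31 (0.65 on the spike-in scale, where 10 were called higher and 0 lower, beside 8350 and 482 of 20331 genes). Higher were Gadd45a (4.91), the kinase gene Plk2 (1.90), the antiproliferative gene Btg2 (1.83) and the desmosome gene Perp (1.32). Lower were the death genes Pmaip1 (-1.59), Tnfrsf10b (-1.11) and Fas (-1.02), together with Trp53inp1 (-1.41), Polk (-1.34) and Zmat3 (-1.09). Mdm2, for the ligase that degrades p53, was -0.55 and turned to 0.46 on the spike-in scale. Cdkn1a, for the cell cycle inhibitor p21, was -0.12 by its brightest probe (0.86 on the spike-in scale), while its dimmer probes gave -2.13 and -1.24, and without the pooled array the brightest gave 0.02.

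In the ERK pathway, whose kinases carry growth factor signals, the kinase gene Mapk3 (ERK1) was lower by less than 2-fold (-0.75, adjusted p = 0.00196 by limma) and turned to 0.21 on the spike-in scale. A second Mapk3 probe gave -0.73. Of 18 genes of the kinases and their feedback, 0 were called higher and 3 lower (16.7%), beside 8.02% and 8.31% of all genes. The median was -0.23 (0.75 on the spike-in scale, where 7 were called higher and 0 lower). The 3 were inhibitors that ERK itself induces, Dusp6 (-1.38), Spry1 (-1.18) and Spry4 (-1.05), which at -0.42, -0.25 and -0.10 were not called on the spike-in scale. Spry4 was also short of 2-fold without myofiber-associated replicate 9 (-0.98).

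Immediate early genes, which respond to serum, stretch or tissue dissociation within minutes, were higher on the fiber. Of 20 tested, 12 were called higher and 1 lower, with a median of 1.53 (2.47 on the spike-in scale). Fos, for a subunit of the AP-1 factor, read 13.37, 13.29, 13.35 and 13.58 against 8.69, 9.07, 8.90 and 9.06, a log2 difference of 4.47 (SE 0.11, adjusted p = 3.85e-07 by limma). The SD over arrays was 0.13 on the fiber and 0.18 off it. Fosb (4.05), Egr1 (2.93), Nr4a1 (2.75), Atf3 (2.46) and the phosphatase gene Dusp1 (2.46) were also called higher, and Fosl2 was called lower (-1.23). Jun (0.60), Myc (0.39) and Fosl1 (-0.08) were not called. The fiber cultures were washed, trypsinized and spun before lysis, and these steps cannot be told apart from the culture itself.

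Among stress genes, the small heat shock protein gene Hspb1 (2.39) and its partner Bag3 (1.62), both of which protect muscle proteins, were called higher with Dnajb9 (1.36) and Herpud1 (1.07), 4 of 17 in all (10 on the spike-in scale). The list median was 0.40 (1.43 on the spike-in scale). Hspa5 (-0.21), Hsp90aa1 (-0.38) and Hspa8 (0.26) were not called. Of 19 antioxidant and metallothionein genes 6 were called higher and 0 lower, with a median of 0.43 (1.43 on the spike-in scale, where 14 were called higher). They were the metal-binding genes Mt2 (1.92) and Mt1 (1.52) and the Nrf2 target genes Nqo1 (1.44), Srxn1 (1.30), Hmox1 (1.07) and Gsta4 (1.07).

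The largest falls included genes of the smooth muscle cytoskeleton. Many of these are targets of SRF and YAP, factors that respond to actin tension. Of 22 such genes, 10 were called lower and 1, Ankrd1 (1.07), higher. The median was -0.91, which became 0.09 on the spike-in scale, but 7 were still called lower there. Acta2, for smooth muscle actin, read 10.65, 11.31, 11.11 and 11.48 on the myofiber-associated arrays and 14.95, 15.84, 15.71 and 15.87 on the dispersed arrays. The groups lay far apart, at a log2 difference of -4.45 (SE 0.25, adjusted p = 5.23e-06 by limma), or 21.9-fold, and -3.48 on the spike-in scale. Actg2 (-5.82), Cnn1 (-4.90), Tagln (-4.56), Myl9 (-3.69) and Ctgf (-3.31) went the same way, and Filip1l (-1.79), Fhl2 (-1.39) and Tpm4 (-1.05) less so. The gene of SRF itself (0.06), Vcl (0.06), Actb (-0.43) and the YAP target Cyr61 (-0.53) were not called. Smooth muscle cells and pericytes express Acta2, Tagln, Cnn1 and Actg2 too, and their part in these values was not tested.

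SRF binds the CArG box. A RefSeq promoter (GRCm38.p6, from 250 bases before to 50 after the start) was at hand for 7 of the 10 genes called lower, and 4 of these (57.1%) hold a CArG box on either strand, against 488 of 27025 genes (1.81%). The 4 are shown, in the gene's direction, for the 100 bases around the box, which is in capitals. They lie at chr10:79988499-79988598 on the plus strand for Cnn2, chr2:156775258-156775357 on the plus strand for Myl9, chr1:43196803-43196902 on the minus strand for Fhl2 and chr16:57549135-57549234 on the plus strand for Filip1l.
Cnn2: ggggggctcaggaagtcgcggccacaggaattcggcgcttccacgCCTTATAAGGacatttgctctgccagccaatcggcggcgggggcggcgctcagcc
Myl9: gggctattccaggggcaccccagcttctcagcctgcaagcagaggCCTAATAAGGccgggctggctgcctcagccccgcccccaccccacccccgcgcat
Fhl2: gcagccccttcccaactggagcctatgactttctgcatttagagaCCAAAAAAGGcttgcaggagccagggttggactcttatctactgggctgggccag
Filip1l: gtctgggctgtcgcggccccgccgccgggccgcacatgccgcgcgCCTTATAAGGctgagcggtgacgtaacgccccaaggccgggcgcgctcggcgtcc
These genes were printed because they hold the letters. In Cnn2 (-2.21) and Filip1l (-1.79) the box is the same 10 bases, and it starts 56 and 62 bases before the transcription start. The list was gathered as SRF and YAP targets, which by itself favors a higher share than over all genes. Members not called were not searched, so the share does not bear on the fall. A match is not a measured binding site.

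Genes of various other kinds completed the largest falls. The epithelial keratin gene Krt19 was well above background on no myofiber-associated array and was at least 32.2-fold lower. The calcium channel gene Trpc6 (-4.34), the transcription factor gene Sox2 (-4.30), the defensin gene Defb28 (-4.41), the oxidase-like gene Moxd1 (-4.38), and Ccdc68 (-4.85), Rnf39 (-4.73) and the olfactory receptor gene Olfr558 (-4.60) followed. Of these, Sox2, Defb28 and Cnn1 were well above background on 1 myofiber-associated array, Rnf39 on 2, and Ccdc68, Olfr558 and Moxd1 on 3, so their differences rest on dim signal.

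On the quantile scale several basement membrane genes were called lower on the fiber. Of 21 collagen genes 5 were called lower (23.8%) and 1 higher (4.76%), beside 8.31% and 8.02% of all genes. The median was -0.36 (0.55 on the spike-in scale, where 7 were called higher and 3 lower). Lower were the basement membrane chains Col4a1 (-2.10) and Col4a2 (-2.12), the perivascular Col18a1 (-2.50) and Col15a1 (-2.07), and Col12a1 (-1.73). Col1a1 (-0.55), Col3a1 (0.21) and Col6a1 (0.07) were not called. Col22a1, for a collagen of the muscle-tendon junction, was well above background on no dispersed array and at least 29.7-fold higher on the fiber. Of 19 laminin and basement membrane genes 7 were called lower, among them Lama4 (-1.66), Lama5 (-1.53), Nid1 (-1.74), Thbs1 (-1.68) and Agrn (-1.45), and 1 higher, with a median of -0.57 (0.55 on the spike-in scale, where 2 were called higher and 0 lower). Lama2, the main laminin gene of muscle, stood at 0.02 and Fn1, for fibronectin, at -0.42.

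Integrins attach cells to that matrix. Of 18 tested, 5 were called lower and 1 higher, with a median of -0.82 (0.17 on the spike-in scale, where 4 were called lower and 4 higher). Lower were the collagen and laminin receptor genes Itga1 (-2.89), Itga6 (-2.74), Itgb4 (-2.44) and Itga3 (-2.04) and also Itga9 (-1.24), although a second, nearly as bright probe of Itga6 gave -1.02. Without dispersed replicate 1 or 2 that probe became the brighter, at -0.98 and -0.99, and Itga6 was not called. Itga7, for the laminin receptor of muscle, was not called (0.40). Itgb6 read 13.32, 12.73, 13.02 and 11.83 on the myofiber-associated arrays and 8.0, 7.47, 7.60 and 7.64 on the dispersed arrays, a log2 difference of 5.05 (SE 0.30, adjusted p = 6.84e-06 by limma). The pooled array was the lowest of its group and still lay far above every dispersed array. Of 26 genes of matrix proteases and their inhibitors, 9 were called lower and 0 higher, with a median of -0.66 (0.33 on the spike-in scale, where 1 was called lower and 3 higher). They include the inhibitors Serpinb2 (-2.82), Timp3 (-1.44) and Timp4 (-1.44) and the plasminogen activator gene Plat (-1.15). On the spike-in scale Timp3 (-0.51) and Timp4 (-0.35) were not called.

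Marker genes of endothelial cells and of leukocytes were mostly called lower in the myofiber-associated samples. Of 22 endothelial genes 21 were called lower and 0 higher, with a median of -2.80 (-1.86 on the spike-in scale), and only Kdr was not called (-0.18). Vwf, for the clotting factor that vessels secrete, read 10.85, 11.23, 10.66 and 11.93 against 14.62, 14.85, 14.82 and 15.11, a log2 difference of -3.68 (SE 0.26, adjusted p = 1.69e-05 by limma). The junction genes Cdh5 (-2.82) and Pecam1 (-2.78) and the transcription factor genes Sox18 (-3.66) and Erg (-3.08) went the same way. Summed over the list, the linear signal was 34397 to 74811 on the myofiber-associated arrays, highest on the pooled array, and 232300 to 323730 on the dispersed arrays. These markers were thus measured in both cultures, and their part in the other lower groups was not tested.

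For leukocytes and macrophages, 22 of 26 genes could be tested, and Ptprc, the gene of the pan-leukocyte marker CD45, was not among them. Of these 15 were called lower and 1 higher, with a median of -1.77 (-0.78 on the spike-in scale, with 10 lower and 3 higher) and a summed signal of 25145 to 34830 against 32873 to 41756. Lower were Laptm5 (-2.75), Tyrobp (-2.52), the lysozyme gene Lyz2 (-2.52), the complement gene C1qa (-2.18) and the macrophage marker gene Adgre1 (-2.04). Csf1r (0.08) and Itgam (0.03) were not called, and the lysosomal gene Cd68, which is not confined to macrophages, was called higher (2.15). S100a9 stood at -3.75 without passing the threshold. Mast cell genes were called lower in 2 of 7 tested, Kit (-2.89) and Cpa3 (-2.63). The median was -1.45 (-0.41 on the spike-in scale, where 2 were called lower). The summed signal was 1711 to 3318 against 4828 to 5794. Cpa3 lost the call without myofiber-associated replicate 7, 8 or 9 or dispersed replicate 1, 2 or 3, with adjusted p of 0.0110 to 0.0140 by limma.

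Of 14 genes of pericytes and smooth muscle, 7 were called lower, with a median of -1.26 (-0.32 on the spike-in scale) and a summed signal of 114400 to 142650 against 131300 to 192740. They were Acta2, Tagln, Cnn1, Myh11 (-3.46), Higd1b (-2.48), Rgs5 and Notch3. The defining receptor gene Pdgfrb (-0.50) and Cspg4 (-0.75) were not called, and Des, shared with muscle, was the 1 called higher. Of 13 Schwann cell genes 6 were called lower, among them Cdh19 (-3.09, well above background on 1 myofiber-associated array) and Sox10 (-2.41), whereas the myelin gene Mbp (-0.17) was not called. The median was -0.84 (0.08 on the spike-in scale, with 5 still lower) and the summed signal was 7965 to 11345 against 16418 to 19379. Of 7 adipocyte genes tested 4 were called lower, among them Fabp4 (-2.97), Cd36 (-2.32) and Pparg (-1.47), and the muscle glucose transporter gene Slc2a4 higher (3.73). The median was -1.47 (-0.56 on the spike-in scale, where 2 were called lower and 1 higher). The summed signal was 19957 to 27229 against 65145 to 99947. Fabp4 and Cd36 are also genes of capillaries. Adipoq was not tested.

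Of 19 fibroblast genes, 4 were called lower (21.1%) and 0 higher, beside 8.31% and 8.02% of all genes. Lower were Ly6a (-2.45), Serping1 (-2.18), Fbln2 (-1.95) and Thy1 (-1.72). The median was -0.54 (0.41 on the spike-in scale, where 5 were called higher and 2 lower). The defining genes Pdgfra (0.40) and Dcn (0.29) were not called, and the summed signals overlapped, at 142290 to 299310 against 219820 to 295350. Of 5 tendon genes tested, 3 were called higher, the tendon transcription factor gene Scx (2.20), Thbs4 (1.68) and Fmod (1.56). The median was 1.56 (2.61 on the spike-in scale, where 4 were called higher). The summed signal was 34199 to 74117 against 10497 to 12844, and the defining gene Tnmd was not tested. The tendon transcription factor gene Mkx (-0.81) and the matrix gene Chad (0.61) were not called, and with normexp background correction the median was 0.78 with 2 called higher. The part of each of these cell types in the values of other groups was not tested.

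Interferon-stimulated genes, the antiviral program that type I interferon turns on, were mostly called lower. Of 24 tested, 21 were called lower and 0 higher, with a median of -2.05. On the spike-in scale the median was -1.09, with 13 called lower and 1 higher. Ifi44 read 6.54, 5.18, 5.06 and 5.98 against 8.45, 9.15, 8.95 and 9.61, a log2 difference of -3.35 (SE 0.37, adjusted p = 0.000149 by limma). Its groups did not overlap. The guanylate-binding protein genes Gbp2 (-2.83) and Gbp3 (-2.67), the RNA sensors Oas2 (-2.73) and Oas1a (-2.33), the translation inhibitor Ifit1 (-2.35), the ubiquitin-like Isg15 (-2.11), and the regulators Irf7 (-2.00) and Stat2 (-1.52) were all called lower. So were the antigen-processing genes Psmb8 (-2.21), Psmb9 (-2.00) and Tap1 (-1.63). The sensor gene Ifih1 (-0.93) and Ifi35 (0.08) were not called.

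Interferon-response elements were searched for as GAAANNGAAA (N is any base) on either strand in the same promoters. They were in 10 of 18 genes called lower that have a promoter (55.6%), against 1079 of 27025 genes (3.99%). Windows of 3 of the 10 are shown because their elements differ in number and strand. They lie at chr19:34583362-34583461 on the plus strand for Ifit3, chr4:156200830-156200929 on the minus strand for Isg15 and chr3:142620559-142620658 on the plus strand for Gbp2, with every element, overlapping ones joined, in capitals.
Ifit3: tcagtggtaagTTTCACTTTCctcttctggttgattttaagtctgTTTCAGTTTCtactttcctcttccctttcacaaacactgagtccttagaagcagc
Isg15: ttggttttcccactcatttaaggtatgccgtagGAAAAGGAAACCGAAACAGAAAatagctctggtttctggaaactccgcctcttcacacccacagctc
Gbp2: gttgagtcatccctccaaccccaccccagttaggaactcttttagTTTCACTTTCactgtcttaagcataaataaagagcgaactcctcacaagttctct
In Ifit3 (-1.84) and Gbp2 the element reads on the opposite strand, and in Isg15 the 3 elements overlap. For comparison, a MEF2 site was in 2 of the 27 called fiber genes with a promoter (7.41%), against 172 of 27025 genes (0.636%), and that of Xirp2 at chr2:67445883-67445982 on the plus strand is shown with its site in capitals.
Xirp2: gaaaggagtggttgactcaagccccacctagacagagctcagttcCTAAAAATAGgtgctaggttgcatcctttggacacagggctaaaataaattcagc
The interferon list was gathered by its known regulation, which by itself favors a higher share of elements. In neither list were members not called searched, so these shares do not bear on the differences. No match in such a window says only that these letters are not there.

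Chemokine and cytokine genes went both ways. Of 27 tested, 7 were called higher and 5 lower, with a median of -0.0026 (1.08 on the spike-in scale, 0.15 with 75th percentile scaling and 0.02 with normexp background correction). Il6, for a cytokine that contracting muscle and activated satellite cells secrete, read 12.28, 12.12, 12.20 and 13.43 on the myofiber-associated arrays and 8.64, 9.37, 9.16 and 9.21 on the dispersed arrays. Every myofiber-associated array was higher, the pooled array most of all, and the difference was 3.41 (SE 0.30, adjusted p = 5.26e-05 by limma). The neutrophil attractants Cxcl2 (2.91) and Cxcl1 (1.90), Cxcl14 (2.37) and Ccl11 (1.66) were also called higher. Cxcl12, the ligand of Cxcr4 and a homing signal, read 12.67, 12.78, 12.50 and 13.00 against 15.82, 16.01, 16.16 and 16.18. That is a log2 difference of -3.30 (SE 0.13, adjusted p = 1.35e-06 by limma), and a dimmer probe gave -1.87. The adhesion gene Icam1 (-2.66) and the alarmin gene Il33 (-1.84) were called lower with it, while Ccl2 (-0.54) and Tnf (0.06) were not called.

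Of 29 TGF-beta and BMP signaling genes, 3 were called higher (10.3%) and 4 lower (13.8%), beside 8.02% and 8.31% of all genes. The median was -0.28 (0.64 on the spike-in scale, where 10 were called higher and 3 lower). The ligand genes Bmp6 (-2.67), Bmp7 (-2.46) and Bmp4 (-1.99) were called lower and Bmp2 (1.6) higher, with the antagonist gene Nog (1.24) and the signal transducer gene Smad3 (2.01). The BMP target genes Id1 (-0.28), Id2 (-0.38) and Id3 (-0.42) were not called. Of 25 Wnt genes 3 were called higher and 9 lower, with a median of -0.10 (0.84 on the spike-in scale, where 8 were called higher and 1 lower). The ligand gene Wnt4 read 9.83, 9.42, 10.14 and 8.34 against 5.06, 4.74, 4.93 and 4.85, a log2 difference of 4.54 (SE 0.35, adjusted p = 2.43e-05 by limma). The pooled array was again lowest, without reaching the dispersed arrays. Wnt9a (2.10) was called higher too, and Wnt7b (-2.21), the receptor gene Fzd2 (-1.79), the antagonist genes Sfrp1 (-1.57) and Dkk2 (-1.45) and the transcriptional partner gene Lef1 (-1.27) lower. The feedback target Axin2 stood at 0.32.

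Of 29 IGF, HGF and FGF signaling genes 2 were called higher (6.90%) and 3 lower (10.3%), near the 8.02% and 8.31% of all genes. The median was -0.29 (0.66 on the spike-in scale, where 8 were called higher and 0 lower). Higher were Hgf (1.56), whose protein activates satellite cells, and the binding protein gene Igfbp5 (1.80), and lower were Igfbp7 (-1.77), Fgfr4 and Pdgfc (-1.14). The HGF receptor gene Met (-0.19), Igf1 (-0.19) and Fgfr1 (-0.05) were not called.

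On the quantile scale few genes of core energy metabolism were called. Of 21 glycolysis genes 2 were called higher, the muscle phosphofructokinase gene Pfkm (4.99) and the muscle hexokinase gene Hk2 (2.90), and 1 lower, the liver phosphofructokinase gene Pfkl (-1.07, or -0.14 on the spike-in scale). These counts are 9.52% and 4.76%, beside 8.02% and 8.31% of all genes tested. The median was 0.15 (1.28 on the spike-in scale, where 12 were called higher and 0 lower), and Gapdh (0.19) and Ldha (0.15) were not called. Of 30 respiratory chain genes 2 were called higher (6.67%, beside 8.02% of all genes tested) and 0 lower. They were the heart and muscle isoforms Cox8b (6.70) and Cox7a1 (5.48). The list median was 0.17 (1.18 on the spike-in scale, where 20 were called higher and 0 lower). Cox4i1 (-0.17) and Sdha (-0.05) were not called. Among 16 other hypoxia-inducible genes, Bnip3 (1.09) was called higher and Adm (-2.61), Ankrd37 (-1.19), Plod2 (-1.18) and Egln3 (-1.16) lower. That is 6.25% higher and 25.0% lower, beside 8.02% and 8.31% of all genes. The median was -0.23 (0.70 on the spike-in scale, where 6 were called higher and 1 lower). All 22 genes of cholesterol synthesis and uptake lay below 0, from -0.27 for Insig1 to -1.36 for Stard4, the 1 called, and 15 more passed the adjusted p without a 2-fold difference. Their median of -0.62 turned to 0.34 on the spike-in scale.

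Separate preparations of both cultures were measured at 72 hr, on 8 arrays that the 48-hr comparison does not use but on the same 2 slides. Of 20435 genes tested there, 970 were called higher (4.75%) and 1233 lower (6.03%). Of the genes called higher at 48 hr, 631 were so at 72 hr (38.5% of the 48-hr list and 65.1% of the 72-hr list). Of those called lower, 875 were (51.5% and 71.0%). Genes called in opposite directions numbered 0 and 3. The list medians at 72 hr were 4.89 for the adult fiber with 32 of its genes called higher, -3.58 for endothelial cells with 19 lower, and -0.97 for interferon-stimulated genes with 10 lower. The Notch list had 4 genes called lower and 1 higher.

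The change of the culture difference from 48 to 72 hr was tested directly, as the interaction of culture and time over all 16 arrays. A slide difference cancels in this interaction only if it is the same at both times. Before normalization the mean E1A difference between the slides at 72 hr was -1.35, beside -1.28 to -1.12 for the E1A probes at 48 hr. The part of that in the interaction was not tested. The interaction passed an adjusted p of 0.01 by limma in 658 of 20435 genes. It did so in 18 of the 125 genes named by the rule given with the processing. Most of the 125 were named for their 48-hr difference, which enters the interaction, so these shares cannot be compared. Myog had the largest change of the 18, from 8.25 to 3.72, with readings at 72 hr of 13.25, 14.13, 12.81 and 14.91 on the myofiber-associated and 9.68, 9.97, 10.05 and 10.50 on the dispersed arrays. The groups still did not overlap at 72 hr. Pax7 went from -0.86 to 0.63, with 12.18, 11.77, 12.21 and 11.82 on the myofiber-associated arrays and 11.23, 11.06, 11.39 and 11.77 on the dispersed arrays at 72 hr (adjusted p of the change 0.00202 by limma). Fgfr4 went from -1.56 to 0.57, Sdc3 from -0.43 to 0.75 and Cxcr4 from -0.93 to 0.76, all on the quantile scale. On the spike-in scale the 48-hr values of Pax7, Sdc3 and Cxcr4 were 0.06, 0.51 and 0.02, and none was computed for 72 hr. Lfng (-2.17 to -0.15), Hey1 (-1.79 to -0.25), Notch3 (-1.76 to -0.05) and Trp53 (-0.70 to -0.04) came close to 0. Emcn (-3.21 to -5.57) and Adm (-2.61 to -4.56) moved further below 0, with no overlap between the cultures at either time.

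**Figure D5:**
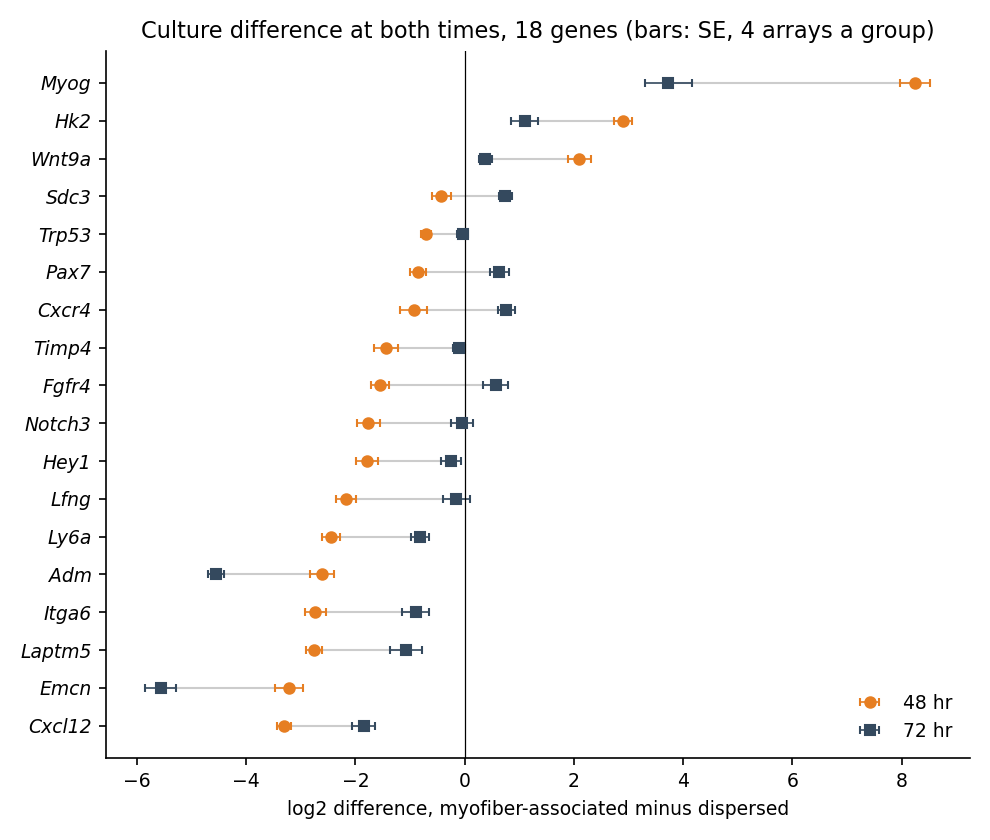
Log2 difference between the cultures at 48 hr (circles) and 72 hr (squares), with SE, for the 18 named genes whose difference changed between the times. Myog moves from 8.25 to 3.72, Pax7, Fgfr4, Sdc3 and Cxcr4 cross 0 on the quantile scale, and Emcn and Adm move further below it.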

How the data were processed

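RNA of the 8 samples at 48 hr was read on single-color Agilent mouse arrays. The authors deposited each spot as a fluorescence intensity, background-subtracted and detrended by Agilent Feature Extraction 11.0.1.1 per the file headers, whose probe positions are in mm9. The series table, which holds log2 ratios of 72-hr to 48-hr arrays as deposited by the authors, was not used.

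Outlier spots were left out, and log2 processed signals were quantile-normalized over the 8 arrays in R 4.3.3 with limma 3.58.1. Identical probes were averaged, the brightest probe was kept per gene, and a gene entered the two-sided test (lmFit and eBayes) when its log2 signal had a median of 5 or more. Adjusted p are by Benjamini-Hochberg across the genes tested. A second fit took 8 arrays at 72 hr after normalizing 16 together, and the interaction took all 16. On simulated data 89.5% of 200 changed genes among 20448 were recovered, with 1.1% false calls. These rates hold for that setting. They do not give the false-call rate of the real comparison, in which 3339 genes were called across 2 slides.

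Genes named are the 12 largest differences in each direction among called genes with no overlap and signal well above background in the higher group, up to 3 called members per list, and a core set. Other list members were named for their role, with their values seen. The members and lists were chosen with earlier results of these data known. List totals are linear signals. The alternatives were spike-in and 75th percentile scaling, the authors' loess step, normexp, other filters and probe rules, a slide row block, other tests and each array left out. Of the tested genes, 13779 matched a current RefSeq symbol by accession. Some list members are counted but not reported here by name.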

Additional observations from a re-analysis of the deposited data

Results flagged for a closer look

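In 10 of 250 groups of 4 arrays examined, 1 array stood apart from the other 3, by a gap that took up most of the range of the group. Chance alone gives about 1 in 20 such groups. Dispersed replicate 1 read 2.67 for Ip6k3 (the others 1.89 to 1.94, all below background), 7.87 for Cnn1 (8.78 to 8.89) and 8.68 for Trpc6 (9.65 to 9.73). Dispersed replicate 4 read 5.41 for Ccne2 (5.83 to 5.86), 10.48 for Gadd45a (10.22 to 10.26) and 4.23 for Fbxo40 (4.78 to 4.84). Of the myofiber-associated arrays, replicate 9 read 10.62 for Hey1 (11.22 to 11.30), and the array of pooled preparations read 17.52 for Hspb1 (18.05 to 18.07), 13.43 for Il6 (12.12 to 12.28) and 11.87 for Cdh15 (12.56 to 12.69). None of these arrays reached the range of the other culture.

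The difference between the cultures differed between 48 and 72 hr in 18 of the 125 named genes, by the interaction of culture and time in limma (adjusted p from 0.000578 to 0.00874). Most named genes were picked for their 48-hr difference, which enters this change. The values that follow are the log2 difference at 72 hr minus that at 48 hr. It was above 0 in the satellite cell genes Pax7 (1.49), Fgfr4 (2.12), Sdc3 (1.17) and Cxcr4 (1.69), in the Notch genes Notch3 (1.71), Lfng (2.0) and Hey1 (1.54), and in Trp53 (0.67). It was also above 0 in Laptm5 (1.65), Ly6a (1.62), Itga6 (1.84), Timp4 (1.33) and Cxcl12 (1.47). It was below 0 in Myog (-4.52), Hk2 (-1.80), Wnt9a (-1.74), Emcn (-2.34) and Adm (-1.93).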

How the results depend on the processing

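No paired analysis was possible because the 48-hr groups share no replicate numbers. Scaling to the spike-ins gave 8832 called genes (8350 higher, 482 lower). The treat test at a log2 difference of 1 gave 1182 (714 and 468), the adjusted p alone 8858 (3378 and 5480) and normexp 2459 with 1095 lower, among 34806 genes past the filter against 20448, so that filter and background correction changed together. Normexp made 55.5% of calls higher and 75th percentile scaling 54.0%, against 49.1%. Leaving out 1 array at a time gave 2934 to 3923 called genes, 1291 to 1741 higher and 1425 to 2182 lower, and spike-in differences of -1.25 to -1.14. Over the named genes the alternatives kept direction and side of the threshold in 2226 values, lost the call in 67, gained it in 5 and turned the sign in 14. With spike-in scaling Pax7 was 0.064, Myf5 0.42, Cdh15 0.31, Vcam1 0.17, Sdc3 0.51, Sdc4 0.67, Trp53 0.22, Mdm2 0.46, Cdkn1a 0.86, Mapk3 0.21, Mki67 0.81, Notch1 0.65 and Cxcr4 0.022, and with 1 array left out Cdkn1a ranged from -0.27 to 0.025, above 0 only without the array of pooled preparations. Of the genes called higher, 1623 remained so with spike-in scaling, and of those called lower 479. The upward shift of that scale favors the first count and lowers the second. The alternatives for 72 hr and for the spike-ins were chosen after seeing the data. Genes near background are limited by their signal, since some fell below the filter when 1 array was left out.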
